A study of Homo sapiens with 4 samples.

Results

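The 10 genes described here encode main components of the basement membrane: the collagen IV chains COL4A1, COL4A2, COL4A5 and COL4A6, the laminin-511 chains LAMA5, LAMB1 and LAMC1, the linker nidogen-1 (NID1), and the heparan sulfate proteoglycans perlecan (HSPG2) and agrin (AGRN). They are 10 of the 67008 genes listed, they were chosen from the measured values of shSTAU1 against Ctrl cells, and all 10 passed the filter on low counts that left 14303 genes. Their differences between the groups are therefore given as a description, and no test result is read for them.

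The libraries came from SAS cells, a human oral squamous carcinoma line, infected with virus carrying either an shRNA against luciferase (shLuc, the group Ctrl) or an shRNA against STAU1 (shSTAU1), with 2 libraries in each group. STAU1 encodes Staufen-1, which binds double-stranded RNA and takes part in mRNA transport, translation and decay. All 4 libraries carry the genotype label WT. Both groups share the infected state and differ in the shRNA. Each target had 1 shRNA, so an effect of STAU1 depletion and an effect particular to that shRNA sequence cannot be told apart. The labels name the cell line as C3H 10T1/2, a mouse line, while organism, cell type and growth conditions are those of human oral cancer cells. All 10 squamous epithelial markers exceeded 1 CPM (counts scaled to library size by TMM) in every library, with a summed level of 7155 to 7594 CPM in Ctrl and 8723 to 11380 CPM in shSTAU1. The sum does not stand for each marker: the log2 fold changes ran from -0.92 (PKP1) to 1.43 (SFN), and 3 of the 10 were negative. Of 10 fibroblast markers, 5 had at most 3 counts in every library, among them POSTN and THY1 at 0, while COL1A1, COL1A2 and FAP exceeded 1 CPM in every library, and the summed level was 27.0 to 31.3 CPM in Ctrl and 17.4 to 26.1 CPM in shSTAU1. Of 8 endothelial markers, 4 had at most 3 counts in every library, among them CLDN5 and EMCN at 0, while VWF and CDH5 exceeded 1 CPM in every library, and the summed level was 15.6 to 18.3 CPM in Ctrl and 8.998 to 18.0 CPM in shSTAU1. The libraries held 32206655 to 36301574 counts. STAU1 itself was at 248.7 and 251.0 CPM in Ctrl and at 41.6 and 41.5 CPM in shSTAU1, which was 16.6% of Ctrl (log2 fold change -2.59, SE 0.13, adjusted p = 0.00103 in edgeR's quasi-likelihood test).

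Basement membranes are thin sheets of matrix under epithelia and around muscle, fat and nerve cells. Laminin trimers polymerise at the cell surface, where integrins and dystroglycan hold them, and collagen IV trimers form a covalently crosslinked network beside them. Nidogens and perlecan bridge the laminin and collagen networks, and agrin ties laminin to dystroglycan. Collagen IV forms as trimers of fixed composition, with α1 and α2 chains in nearly all basement membranes and α5 and α6 chains together in the basement membrane of stratified epithelia and smooth muscle. The genes of each such pair lie head to head and are read in opposite directions from a shared promoter region.

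The 4 collagen IV genes and AGRN were at 40.6% to 45.3% of their Ctrl level in shSTAU1 cells. The laminin genes and HSPG2 were at 65.1% to 83.9%, and NID1 was near the limit of counting in every library. The fitted log2 fold change (shSTAU1 minus Ctrl) was negative for all 10, with a median of -0.88 beside 0.01 over all tested genes. Below -1 stood 5 of the 10, and 6.77% of all tested genes reached -1 or less. Both shSTAU1 libraries were below both Ctrl libraries for 7 of the 10, which held for 28% of all tested genes. In the test over all genes, 5 of the 10 (AGRN and the 4 collagen IV genes) had an adjusted p under 0.05 with a lower level and 0 with a higher level, beside 1.48% and 1.13% of all tested genes. The 5 became 4 with a correction for length and GC content, beside 142 called over all genes. It became 6 with DESeq2, beside 1449, and 2 without the filter on low counts, beside 11. When each library was left out in turn, the median log2 fold change of the 10 ran from -0.93 to -0.75. Because the genes were chosen on this contrast, nothing is read from the counts above. In bulk RNA, fewer cells that express a gene and less of its RNA per cell cannot be told apart.

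**Figure D1:**
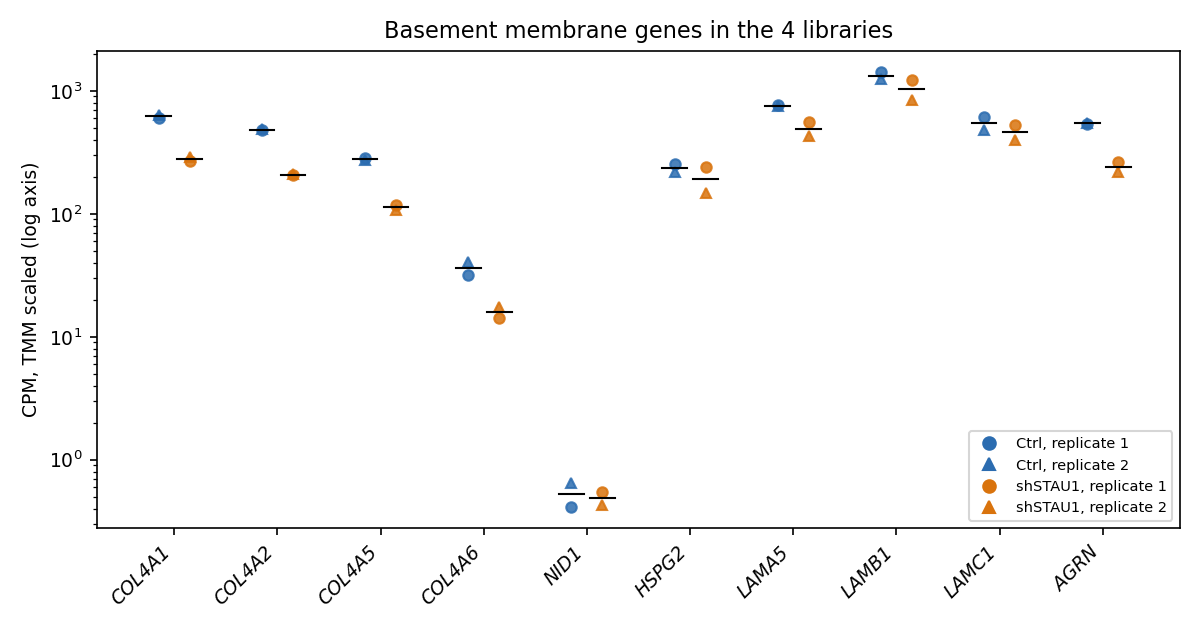
TMM-scaled CPM (log axis) of the 10 genes in each of the 4 libraries, Ctrl in blue and shSTAU1 in orange, circles for replicate 1, triangles for replicate 2 and bars for group means. The collagen IV genes and AGRN stand apart between the groups, with COL4A1 at 598.2 and 640.9 CPM in Ctrl against 270.4 and 290.8 CPM in shSTAU1, while NID1 lies under 1 CPM throughout.

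COL4A1 (ENSG00000187498.16, chr13:110148963-110307233, minus strand, 52 exons) and COL4A2 (ENSG00000134871.19, chr13:110305812-110513209, plus strand, 48 exons) encode the α1 and α2 chains. COL4A1 was at 598.2 and 640.9 CPM in the Ctrl libraries and at 270.4 and 290.8 CPM in the shSTAU1 libraries. COL4A2 was at 480.4 and 486.3 CPM in Ctrl and at 205.4 and 209.8 CPM in shSTAU1. Both shSTAU1 libraries were lower for either gene, and the gap was far wider than the spread within a group. The fitted log2 fold change was -1.14 (SE 0.12) for COL4A1 and -1.22 (SE 0.12) for COL4A2. The 4 differences between a shSTAU1 and a Ctrl library ran from -1.245 to -1.04 for COL4A1 and from -1.24 to -1.20 for COL4A2, the tightest of the 10 genes.

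The promoter window of COL4A2 is shown because it holds the starts of both genes. RefSeq (GRCh38.p14) places the start of COL4A2 at base 110307284 and that of COL4A1 at base 110307157 on the other strand, 127 bases away, so their windows of 250 bases before to 50 after the start share 226 bases. Capitals mark CCAAT, the CCAAT box, and GGGCGG, the GC box, both searched on both strands. The window spans chr13:110307034-110307333 on the plus strand.
COL4A2: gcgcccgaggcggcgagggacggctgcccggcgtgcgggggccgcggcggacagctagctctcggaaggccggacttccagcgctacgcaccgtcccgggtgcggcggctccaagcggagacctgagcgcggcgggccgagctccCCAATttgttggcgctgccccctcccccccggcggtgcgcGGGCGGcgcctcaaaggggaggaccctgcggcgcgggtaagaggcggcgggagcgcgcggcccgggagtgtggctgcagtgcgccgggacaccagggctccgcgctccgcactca
The GC content of the windows was 76.7% for COL4A1 and 77.7% for COL4A2, beside a median of 58.7% over all 35116 windows. CCAAT was present in 34.6% of all windows and in 5 of the 10 windows found for 9 of the genes described here, those of COL4A1, COL4A2, COL4A5, NID1 and the nearer of 2 for COL4A6. GGGCGG was present in 45% of all windows and in 8 of these 10, all but those of COL4A5 and the nearer one of COL4A6, and TATAAA in 11.5% of all windows and in 0 of the 10. AGRN had no entry. In GENCODE 29, whose gene bounds are wider, COL4A1 and COL4A2 overlap on opposite strands with starts 1421 bases apart, and the strand setting of the counting was not given, so reads from the overlap may count for either gene.

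COL4A5 (ENSG00000188153.13, chrX:108439844-108697545, plus strand, 51 exons) encodes the α5 chain, the one altered in most families with Alport syndrome, and COL4A6 (ENSG00000197565.15, chrX:108155607-108439497, minus strand, 45 exons) its partner α6. COL4A5 was at 283.1 and 273.2 CPM in Ctrl and at 118.6 and 107.1 CPM in shSTAU1. COL4A6 was at 31.9 and 40.8 CPM in Ctrl and at 14.3 and 17.6 CPM in shSTAU1. The groups did not overlap for either gene, although the Ctrl libraries differed more for COL4A6 than for the other collagen IV genes. The fitted log2 fold change was -1.30 (SE 0.13) for COL4A5, the most negative of the 10, and -1.19 (SE 0.20) for COL4A6.

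The window of COL4A5 is shown beside that of COL4A2 for its different make-up, with 49.3% GC and without a GC box. It spans chrX:108439588-108439887 on the plus strand around a start at base 108439838. COL4A6 has starts 380 and 1416 bases away on the minus strand, and the nearer one's window shares 121 bases with it. Capitals mark CCAAT and its reverse complement.
COL4A5: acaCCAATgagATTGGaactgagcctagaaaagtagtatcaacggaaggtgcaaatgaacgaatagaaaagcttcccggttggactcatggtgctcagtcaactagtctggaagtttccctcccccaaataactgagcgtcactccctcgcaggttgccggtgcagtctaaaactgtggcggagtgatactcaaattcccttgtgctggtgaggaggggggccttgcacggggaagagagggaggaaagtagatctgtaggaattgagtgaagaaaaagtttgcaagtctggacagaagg
The windows of COL4A6 held 43.7% and 50.0% GC. The 2 collagen pairs had a head-to-head arrangement and CCAAT in a window of each gene in common and differed in base composition. In the COL4A5 window the matches lie at the end farthest from its start, and CCAAT was present in 34.6% of all windows. The fitted differences of these collagen genes lay between -1.30 and -1.14, and a link to these features was not tested.

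Count ratios within a library do not depend on its scaling. COL4A1 had 1.245 and 1.32 counts per COL4A2 count in Ctrl and 1.32 and 1.39 in shSTAU1, so the groups met at their edges and the log2 change was 0.08 (pooled SD 0.06). COL4A5 had 8.89 and 6.69 counts per COL4A6 count in Ctrl and 8.29 and 6.10 in shSTAU1 (log2 change -0.12, pooled SD 0.30). Within each pair the chains had like differences, and the ratio groups overlapped. COL4A1 per COL4A5 was 2.11 and 2.35 in Ctrl and 2.28 and 2.71 in shSTAU1, which also overlapped. Against the laminin γ1 chain the picture was another: COL4A1 per LAMC1 was 0.975 and 1.33 in Ctrl and 0.516 and 0.735 in shSTAU1, with no overlap (log2 change -0.89, pooled SD 0.34).

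The paralogs COL4A3 and COL4A4, which encode the other chains of the mature kidney glomerulus and lung network, were close to absent. COL4A3 had 8 and 5 counts in Ctrl and 3 and 0 in shSTAU1 and was below the filter. COL4A4 was at 1.13 and 2.51 CPM in Ctrl and at 2.04 and 1.70 CPM in shSTAU1, which overlapped (log2 fold change 0.04, SE 0.46, adjusted p = 0.965 in edgeR's quasi-likelihood test).

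AGRN (ENSG00000188157.15, chr1:1020123-1056118, plus strand, 36 exons) encodes agrin, known from the neuromuscular junction and also made by epithelia. It was at 540.6 and 545.6 CPM in Ctrl and at 263.1 and 219.9 CPM in shSTAU1. The Ctrl libraries were close together, and both shSTAU1 libraries lay far below them, with a fitted log2 fold change of -1.17 (SE 0.14). HSPG2 (ENSG00000142798.20, chr1:21822245-21937297, minus strand, 97 exons) encodes perlecan, which carries heparan sulfate chains that hold growth factors. It was at 254.3 and 218.7 CPM in Ctrl and at 239.7 and 147.3 CPM in shSTAU1. The groups overlapped, since shSTAU1 replicate 1 lay between the Ctrl libraries and replicate 2 lay under them. The log2 fold change of -0.29 (SE 0.22) became -0.67 without shSTAU1 replicate 1 and 0.01 without shSTAU1 replicate 2, so 1 library decided its sign and size. HSPG2 had 0.471 and 0.401 counts per AGRN count in Ctrl and 0.911 and 0.670 in shSTAU1, with no overlap (log2 change 0.85, pooled SD 0.25). The mix of these 2 proteoglycan mRNAs thus held relatively more HSPG2 in both shSTAU1 libraries.

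**Figure D2:**
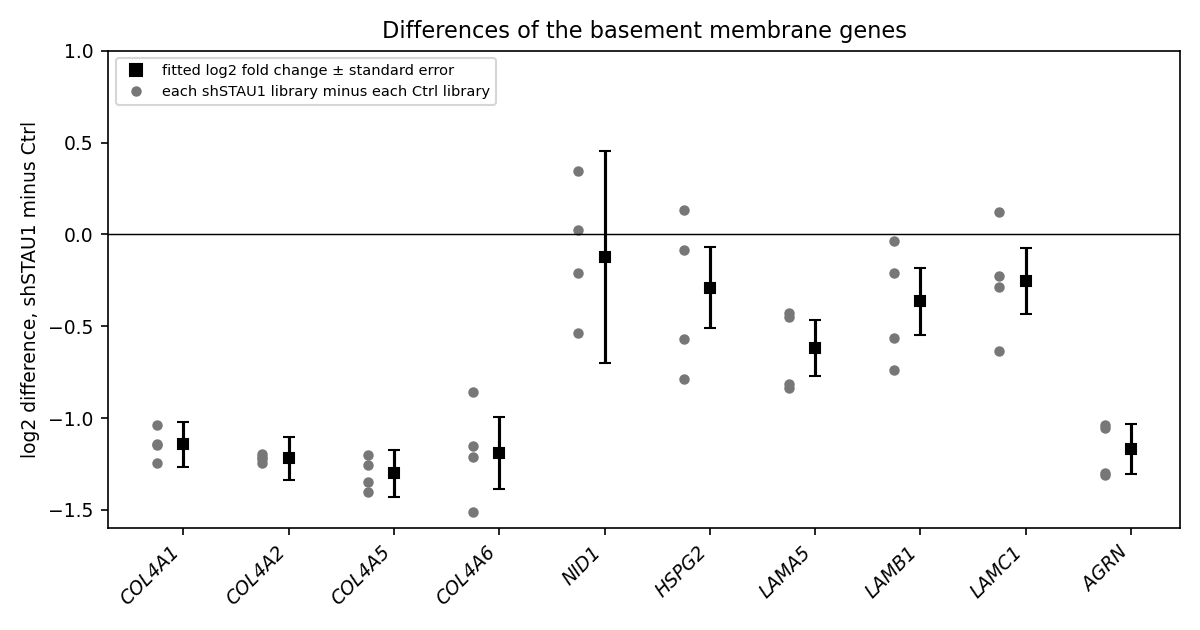
Log2 difference, shSTAU1 minus Ctrl, of the 10 genes: squares show the fitted fold change with its standard error, and grey points each of the 4 differences between a shSTAU1 and a Ctrl library. The 4 collagen IV genes and AGRN have fitted values from -1.30 to -1.14 with all points below 0, while points of NID1, HSPG2 and LAMC1 fall on both sides of 0.

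LAMA5, LAMB1 and LAMC1 encode the α5, β1 and γ1 chains of laminin-511, a widespread laminin of epithelial and vascular basement membranes bound by integrin α6β1 and α3β1. LAMA5 (ENSG00000130702.15, chr20:62307955-62367312, minus strand, 80 exons) was at 764.1 and 751.6 CPM in Ctrl and at 559.2 and 427.9 CPM in shSTAU1, with a fitted log2 fold change of -0.62 (SE 0.15). Its Ctrl libraries were close together and both shSTAU1 libraries were lower. LAMB1 (ENSG00000091136.14, chr7:107923799-108003255, minus strand, 34 exons) was at 1411 and 1250 CPM in Ctrl and at 1222 and 845.6 CPM in shSTAU1. Its groups did not overlap but nearly met, since shSTAU1 replicate 1 lay just under Ctrl replicate 2, and the fitted log2 fold change was -0.36 (SE 0.18). LAMC1 (ENSG00000135862.6, chr1:183023460-183145592, plus strand, 28 exons) was at 613.6 and 482.4 CPM in Ctrl and at 524.2 and 395.7 CPM in shSTAU1. Its groups overlapped, and the fitted log2 fold change was -0.25 (SE 0.18). Without shSTAU1 replicate 2 the value was -0.13 for LAMB1 and -0.07 for LAMC1, and without shSTAU1 replicate 1 it was -0.64 and -0.46.

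The 3 chains differed from each other in how far apart the groups were. LAMA5 per LAMC1 count was 1.245 and 1.56 in Ctrl and 1.07 and 1.08 in shSTAU1, with no overlap (log2 change -0.38, pooled SD 0.16). LAMB1 per LAMC1 was 2.30 and 2.59 in Ctrl and 2.33 and 2.14 in shSTAU1, which overlapped. LAMB2, the β2 chain that replaces β1 in laminin-521, was at 283.5 and 302.8 CPM in Ctrl and at 212.9 and 163.8 CPM in shSTAU1 (log2 fold change -0.64, SE 0.16, adjusted p = 0.0684 in edgeR's quasi-likelihood test). LAMB1 per LAMB2 count was 4.98 and 4.13 in Ctrl and 5.74 and 5.16 in shSTAU1 (log2 change 0.26, pooled SD 0.15). The ratio of these mRNA counts was thus higher in both shSTAU1 libraries, with the groups close together, and protein chains were not measured. LAMA5 overlaps ADRM1 on the opposite strand (log2 fold change 0.09, adjusted p = 0.793 in edgeR's test), and LAMB1 overlaps DLD in the same way (log2 fold change 0.25, adjusted p = 0.250), and reads shared with them cannot be assigned without the strand setting. The other annotated genes overlapping the 10, apart from the COL4A1 and COL4A2 pair, had at most 4 counts in a library.

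**Figure D3:**
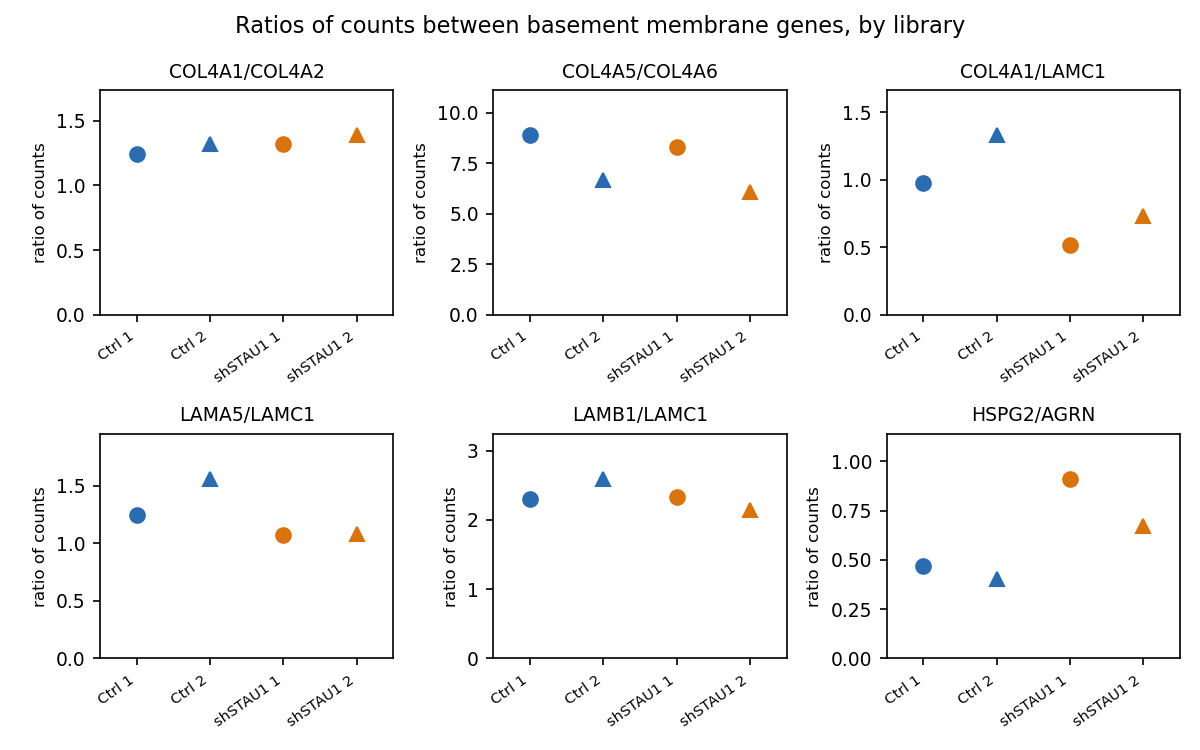
Ratio of counts between 2 basement membrane genes in each of the 4 libraries, Ctrl in blue and shSTAU1 in orange, with the y axis from 0. COL4A1 per COL4A2 stays between 1.245 and 1.39, whereas COL4A1 per LAMC1 falls from 0.975 and 1.33 in Ctrl to 0.516 and 0.735 in shSTAU1 and HSPG2 per AGRN is higher in both shSTAU1 libraries.

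NID1 (ENSG00000116962.15, chr1:235975830-236065162, minus strand, 20 exons) encodes nidogen-1, the link between laminin γ1 and collagen IV. It had 14 and 21 counts in Ctrl and 19 and 15 in shSTAU1. The groups overlapped and the fitted log2 fold change was -0.12 with an SE of 0.58, so a difference of the size seen for COL4A1 lies within 2 standard errors and was not detectable at this depth. The value was -0.41 without Ctrl replicate 1, 0.22 without Ctrl replicate 2 and 0.04 without shSTAU1 replicate 2, so its sign rested on single libraries. Its paralog NID2 had 0 and 1 counts in Ctrl and 3 and 1 in shSTAU1, no more than the floor of 3 counts.

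The libraries numbered 2 held less of several genes in both groups. On the log2 scale, library 2 minus library 1 was -0.35 in Ctrl and -0.41 in shSTAU1 for LAMC1, -0.17 and -0.53 for LAMB1, and -0.22 and -0.70 for HSPG2. For COL4A6 it was 0.36 and 0.30, and for COL4A2 only 0.02 and 0.03. The labels do not say that a number marks a shared culture or day. For LAMC1, LAMB1 and HSPG2 these gaps within a group were as large as their fitted differences between the groups or larger in at least 1 group.

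For the order of the genes by level, values were taken per length, as TPM, a unit that divides the counts by each gene's length, here that of its merged exons, and scales each library to the same total. In Ctrl the order was LAMB1 at 685.7 ± 57.3 TPM (SD, n = 2), LAMC1 at 273.4 ± 45.8, LAMA5 at 222.4 ± 2.17, AGRN at 211.7 ± 1.78, COL4A1 at 176.3 ± 8.95, COL4A2 at 105.1 ± 1.11, COL4A5 at 98.3 ± 2.28, HSPG2 at 54.8 ± 5.72, COL4A6 at 16.4 ± 2.90 and NID1 at 0.378 ± 0.115. Laminin β1 stood above the rest, and the γ1 and α5 chains differed by little more than the SD of LAMC1. In shSTAU1 the level was 497.2 ± 138.3 TPM for LAMB1, 214.1 ± 46.8 for LAMC1, 135.1 ± 28.3 for LAMA5 and 87.8 ± 13.0 for AGRN, with the same order down to COL4A1 at 74.3 ± 2.22. Below it COL4A2 at 42.0 ± 0.272, HSPG2 at 41.9 ± 14.99 and COL4A5 at 37.2 ± 3.48 lay within the spread of HSPG2, followed by COL4A6 at 6.69 ± 0.828 and NID1 at 0.324 ± 0.0641. The kit used captures exons and may recover some genes more than others, so the order is one of captured reads. The choice of length bears on this order too. Over coding bases alone, an alternative chosen after seeing the data, Ctrl COL4A1 was at 191.7 ± 11.6 TPM and LAMC1 at 175.7 ± 27.7, and LAMA5 at 105.9 ± 0.0257 fell under COL4A2 at 145.8 ± 2.998 and AGRN at 137.1 ± 2.52. LAMB1 stayed first at 384.6 ± 28.3 TPM, and HSPG2, COL4A6 and NID1 stayed last. COL4A1 stood to COL4A2 in Ctrl as 1.68 to 1 over merged exons and as 1.32 to 1 over coding bases.

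The 3′ UTRs were searched for the site of the miR-29 family, which is known to act on collagen and laminin mRNAs in many tissues, and for the words AAGAGAA and AGAGAAA. The mature miRNAs, from RefSeq, share the seed shown in capitals (bases 2 to 8), which pairs with TGGTGCT on the mRNA strand.
hsa-miR-29a-3p: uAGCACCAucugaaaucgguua
hsa-miR-29b-3p: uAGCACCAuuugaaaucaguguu
hsa-miR-29c-3p: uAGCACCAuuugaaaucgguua
TGGTGCT occurred in the 3′ UTR of 7 of the 10 genes, once in each, and in 14.5% of the 11816 tested genes with an annotated 3′ UTR. The median 3′ UTR length was 1151 bases over the 10 genes and 1036 over all. The sites are shown with 7 bases on either side, the match in capitals, with coordinates of the match in GRCh38.
COL4A1 (chr13:110150327-110150333, - strand, base 30 of the 3′ UTR): cacaacaTGGTGCTacttctt
COL4A2 (chr13:110512219-110512225, + strand, base 28 of the 3′ UTR): gccatttTGGTGCTtattctt
COL4A5 (chrX:108696484-108696490, + strand, base 106 of the 3′ UTR): ccgtcaaTGGTGCTactatat
COL4A6 (chrX:108156772-108156778, - strand, base 222 of the 3′ UTR): gtcaagcTGGTGCTactgttt
NID1 (chr1:235977370-235977376, - strand, base 491 of the 3′ UTR): tttgtttTGGTGCTctgaatt
HSPG2 (chr1:21822476-21822482, - strand, base 834 of the 3′ UTR): atgccgcTGGTGCTcaggaag
LAMC1 (chr1:183144253-183144259, + strand, base 1463 of the 3′ UTR): gacacacTGGTGCTattaatt
LAMA5, LAMB1 and AGRN had no such match, and their 3′ UTRs were 271, 133 and 1135 bases long. Below a log2 fold change of -1, COL4A1, COL4A2, COL4A5 and COL4A6 held the match and AGRN lacked it. Above -1, NID1, HSPG2 and LAMC1 held it and LAMA5 and LAMB1 lacked it. A link between the match and the differences was not tested. AAGAGAA or AGAGAAA occurred in the 3′ UTR of 4 of the 10 (COL4A5, COL4A6, NID1 and LAMC1), beside 31.9% of all. A match is a description of the letters, and the miRNAs were not measured in these libraries.

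Base composition and length are given because a correction for them changed the number of genes called over the whole table from 372 to 142. The transcripts held 48.7% (LAMC1) to 67.6% (AGRN) GC, and the 5 genes below -1 ran from 50.8% (COL4A5) to 67.6% (AGRN). With a correction for length and GC content, the log2 fold change was -1.04 for COL4A1, -1.11 for COL4A2, -1.19 for COL4A5, -1.08 for COL4A6 and -1.03 for AGRN. It was -0.40 for LAMA5, -0.27 for LAMB1, -0.10 for LAMC1, -0.09 for HSPG2 and -0.03 for NID1. The correction brought all 10 nearer to 0, and the collagen IV genes and AGRN stayed below the other 5.

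Genes that act with these 10 were taken from lists of their partners, and tested over all 14303 genes, of which 2.6% had an adjusted p under 0.05. All these lists were chosen with earlier results of these data known, so the tests describe the genes and give no independent support. LAMA3 and LAMB3, which encode chains of laminin-332, the anchoring laminin of stratified epithelia, both fell. LAMA3 was at 1540 and 1336 CPM in Ctrl and at 448.8 and 534.5 CPM in shSTAU1 (log2 fold change -1.55, SE 0.15, adjusted p = 0.0108). LAMB3 was at 2043 and 1786 CPM in Ctrl and at 1148 and 983.4 CPM in shSTAU1 (log2 fold change -0.84, SE 0.14, adjusted p = 0.0358). Of 18 tested other basement membrane genes, 2 fell and 1 rose, with a median of -0.19. NTN4, netrin-4, which binds laminin γ1 and disrupts laminin polymers, was at 32.9 and 37.7 CPM in Ctrl and at 7.44 and 7.98 CPM in shSTAU1 (log2 fold change -2.19, SE 0.18, adjusted p = 0.00584). SPARC, a collagen IV-binding matricellular protein, fell by 0.83 on the log2 scale (SE 0.15, adjusted p = 0.0370). NPNT, nephronectin, an integrin α8β1 ligand, rose from 5 and 5 counts to 229 and 44 (log2 fold change 4.66, SE 0.89, adjusted p = 0.0424 in edgeR's test and 0.121 in limma-voom). The log2 fold change was 3.03 without shSTAU1 replicate 1. With 5 counts in each Ctrl library, NPNT passed the filter on low counts only through shSTAU1, where it was high. Nothing is therefore read from its p-value or from its place in the count above. Of the called genes named here and in the next paragraph, 4 (LAMA3, LAMB3, NTN4 and COL1A1) kept an adjusted p under 0.05 with the length and GC correction, and without Ctrl replicate 1 no gene of the table did.

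Collagen modification and export genes, among them prolyl and lysyl hydroxylases and COPII components, had 0 of 21 past the threshold in edgeR's test, 8 with an unadjusted p under 0.05 and 4 in DESeq2. The list had a median of -0.14. The collagen IV chains, at -1.30 to -1.14, were chosen on this contrast, so no result is read from the gap to this list. Over all 14303 tested genes DESeq2 called 1449. No share over all genes is given at an unadjusted p under 0.05, so nothing is read from the unadjusted counts here and below. Of 7 crosslinking enzymes, TGM2, transglutaminase 2, fell by 0.72 on the log2 scale (SE 0.13, adjusted p = 0.0366). PXDN, peroxidasin, which forms the sulfilimine bond between collagen IV trimers, was at 433.6 and 401.9 CPM in Ctrl and at 266.2 and 180.2 CPM in shSTAU1 and missed the threshold (log2 fold change -0.90, SE 0.19, adjusted p = 0.0534). Basement membrane receptors had 0 of 12 past the threshold in edgeR's test, 4 with an unadjusted p under 0.05 and 4 in DESeq2. The highest ranked by size was ITGA2, the α2 chain of a collagen receptor, at 1984 and 1362 CPM in Ctrl and 913.0 and 645.6 CPM in shSTAU1 (log2 fold change -1.10, SE 0.22, adjusted p = 0.0510). Other genes short of the threshold rose. At an adjusted p under 0.10 in edgeR's test, 837 of the 14303 tested genes rose and 748 fell. At that threshold 1 modification and export gene rose and 3 fell. Of the other basement membrane genes, 2 rose and 4 fell, counting those past 0.05. Those rising included SERPINH1 (log2 fold change 0.75, adjusted p = 0.0964) and LAMA4 (log2 fold change 0.68, adjusted p = 0.0749). PXDN, ITGA2, SERPINH1 and LAMA4 were named after their values were seen. Heparan sulfate synthesis genes, which make the side chains of perlecan and agrin, had 0 of 19 past the threshold in edgeR's test, 1 with an unadjusted p under 0.05 and 1 in DESeq2, with a median of -0.06. Of 15 dystroglycan glycosylation genes, 1 rose: DPM1, a subunit of dolichol-phosphate mannose synthase, was at 229.2 and 234.4 CPM in Ctrl and at 385.2 and 404.7 CPM in shSTAU1 (log2 fold change 0.77, SE 0.12, adjusted p = 0.0357). Of 19 other collagen genes, 3 fell and 0 rose past the threshold: COL8A1 by 2.05 (adjusted p = 0.0475), COL1A1 by 1.35 (adjusted p = 0.0360) and COL5A1 by 0.69 (adjusted p = 0.0427) on the log2 scale. Short of it, COL9A3 rose by 1.30 (adjusted p = 0.0885 in edgeR's test) and COL1A2 by 1.01 (adjusted p = 0.185). Both were named after their values were seen. The log2 fold change was negative for 11 of the 19. COL1A1 is also on the fibroblast marker list, whose other 9 genes summed to 11.3 and 11.1 CPM in Ctrl and to 18.3 and 11.2 CPM in shSTAU1.

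**Figure D4:**
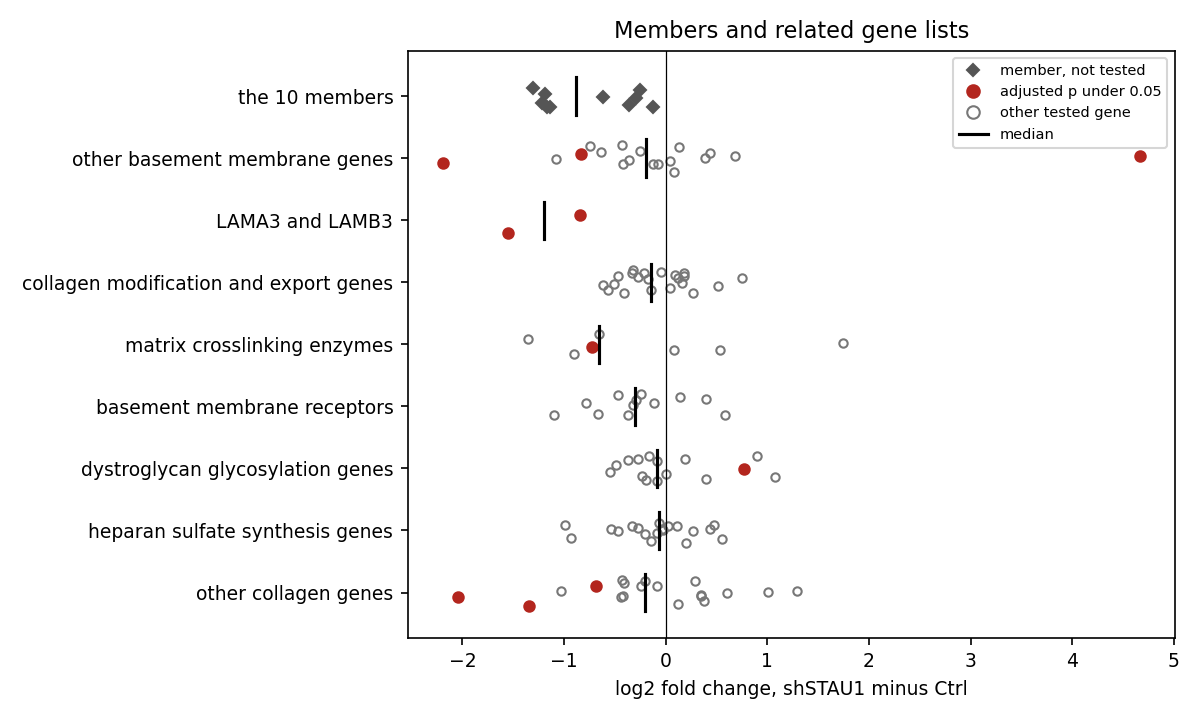
Fitted log2 fold change, shSTAU1 minus Ctrl, of the 10 genes (diamonds) and of the tested genes in 8 related sets, filled red where the adjusted p was under 0.05, with a bar at each median. The median of the 10, which were chosen on this contrast, is -0.88, and LAMA3 and LAMB3 lie at -1.55 and -0.84. The lists of collagen modification and export, dystroglycan glycosylation and heparan sulfate synthesis genes have medians from -0.14 to -0.06.

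The genes outside these lists whose profile over the 4 libraries was nearest to the mean of the 10, by the distance between log2 CPM values centred on each gene's mean, were ENSG00000280758 (distance 0.04, log2 fold change -0.84), L3MBTL3, a chromatin reader of the MBT family (0.06, -0.81), and the zinc finger genes ZNF234 (0.07, -0.79) and ZNF81 (0.07, -0.76). This likeness is a description over 4 libraries.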

How the data were processed

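RNA from 4 libraries of SAS cells (TruSeq RNA Exome, a capture kit) was sequenced, and the authors deposited a table of gene counts, whole numbers without normalization. The submitters' processing notes name Partek and hg38, and the aligner, counter, annotation release and strand setting are not given in the sources used here. The 10 genes and all lists were chosen with earlier results of these data known.

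Genes were filtered with filterByExpr (14303 kept, holding 99.9% of counts), scaled by TMM and tested with edgeR 4.0.16 in R 4.3.3 (quasi-likelihood test, Benjamini-Hochberg adjustment over all tested genes, threshold 0.05), shSTAU1 against Ctrl, without a replicate block. A standard error is the absolute log2 fold change over the square root of F. The fit was tested on simulated data. Alternatives were DESeq2 1.42.0, limma-voom 3.58.1, other scaling and filters, a length and GC correction, a replicate block, other thresholds and leaving out each library. Nothing in the labels says that the libraries came from separate cultures, so p-values measure the spread between these libraries, which may be technical. With 2 against 2 an exact permutation test cannot go below 0.333 (two-sided), so none is given for single values.

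Coordinates, lengths, GC content and 3′ UTRs came from GENCODE 29 (GRCh38), which held 58520 of the 67008 gene IDs. Promoter windows and miRNAs came from RefSeq tables (GRCh38.p14). Gene lists named at most 3 genes each past the threshold with separate groups and the largest change, plus the 10 genes, STAU1, the paralogs NID2, LAMB2, COL4A3 and COL4A4, overlapping genes and those starting within 1000 bases, and the 5 genes nearest in profile. Of the genes these rules cover, 2 are not reported here. Protein sequences were not analysed here.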

Additional observations from a re-analysis of the deposited data

How the results depend on the processing

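The median log2 fold change of the 10 genes, -0.88, ran from -0.93 to -0.75 when each library was left out in turn, and STAU1 from -2.60 to -2.58, with an adjusted p of 0.49 without Ctrl replicate 1. The correction for length and GC gave a median of -0.71. With 2 libraries a group the counts of genes past the threshold depended on the choice of test. Over all genes there were 372, and 1449 with DESeq2, 142 after correcting for length and GC, 404 with library size scaling, 363 with voom, 11 without the filter, 1585 at an adjusted p under 0.10 and 2098 with a fold of 1.5 and an unadjusted p. Leaving out 1 library gave 0 (Ctrl replicate 1) to 2780 (shSTAU1 replicate 1).

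The deviations of libraries with the same number correlated at 0.27 over the tested genes and at 0.59 over the 4791 with a log2 CPM over 5, with only 2 pairs and no label for a shared batch. A replicate block gave 4087 genes, and 3245 together with that correction. The 10 genes were chosen on this contrast, so nothing is read from their counts. Of them, 5 passed, and 8 did with the block, 4 with the correction, 6 with both and 2 without the filter. When each library was left out in turn, the log2 fold changes of the 4 collagen IV genes and AGRN stayed between -1.37 and -0.99. The ranges of NID1 (-0.41 to 0.22) and HSPG2 (-0.67 to 0.01) crossed 0.

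For the lists, in the order receptors, modification and export, dystroglycan glycosylation, heparan sulfate, LAMA3 with LAMB3, crosslinking, other basement membrane and other collagens, the counts were 0, 0, 1, 0, 2, 1, 3 and 3. They became 4, 4, 1, 1, 2, 4, 7 and 5 with DESeq2; 3, 4, 3, 1, 2, 4, 6 and 5 at 0.10; 3, 2, 2, 1, 2, 5, 7 and 5 with the fold of 1.5; 0, 0, 0, 0, 2, 0, 1 and 1 with the correction; 6, 8, 4, 1, 2, 5, 7 and 8 with that correction and the replicate block; 8, 8, 4, 2, 2, 5, 9 and 9 with the block alone; 1, 0, 1, 0, 2, 2, 3 and 3 with library size scaling; 1, 0, 1, 0, 2, 2, 2 and 2 with voom; and 0, 0, 0, 0, 1, 0, 1 and 0 without the filter. Leaving out 1 library gave ranges of 0 to 6, 0 to 5, 0 to 3, 0 to 1, 0 to 2, 0 to 5, 0 to 8 and 0 to 8. The cause of these shifts was not tested. The ratio of COL4A1 to COL4A2 in Ctrl, 1.68 over merged exons, was 1.28 without a length and 1.32 over coding bases.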

Other observations

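B3GALNT2, which builds a sugar of the laminin-binding glycan on dystroglycan, was listed at 0 in all 4 libraries, and DDR1, a collagen receptor of epithelia, had 3 to 11 counts in each. These data do not show whether B3GALNT2 and DDR1 are expressed in the cells, and the cause of their low counts was not tested. Counts near 0, also those of NID1, NID2 and COL4A3, are given without a statement on whether the gene is silent.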
